A study of Mus musculus with 5 samples.

Results

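Transcripts of neutrophil granules and of neutrophil maturity were followed through 10 genes, Ngp, Camp, Ltf, Lcn2, Chil3, Hp, Pglyrp1, Olfm4, Cd177 and Retnlg, chosen by name from the 55250 genes of the deposited table. All 10 were found. The samples are mouse primary cells labelled PMN-MDSC (polymorphonuclear myeloid-derived suppressor cell), a state of neutrophils that dampens T cell responses and accumulates with cancer. There were 3 libraries from lung (numbers 1, 2 and 3) and 2 from tumor (numbers 2 and 3), all of wild-type genotype with no further treatment in the labels. The labels leave out how the cells were gated, the kind of tumor, and the strain and age of the mice. They also do not say whether each library is its own animal, so the p-values reflect library-to-library spread that could be technical.

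Neutrophils fill their granules in sequence while they mature in the marrow. Primary granules with myeloperoxidase and serine proteases come first, and secondary granules with lactoferrin, cathelicidin and lipocalin-2 follow under the transcription factor C/EBP-epsilon. Transcripts of many secondary granule proteins decline again as the cell matures, whereas transcripts such as Retnlg are typical of mature neutrophils. In tumor-bearing mice the secondary granule transcripts are used as signs of recently made, immature neutrophils.

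Values are TPM, a share of all transcripts that is corrected for transcript length, so levels of different genes can be compared. A rise of other transcripts lowers every share. In bulk RNA, fewer cells of a type and less RNA per cell cannot be told apart. Each difference is the tumor mean less the lung mean of log2(TPM + 1), given ± SE. The Benjamini-Hochberg adjusted p is from limma fitted to the 16387 genes that averaged 1 TPM or more. A gene was called when the adjusted p was under 0.05 and the difference at least 1.5-fold.

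The tissues differed in far more than these genes. The pan-leukocyte gene Ptprc, which encodes CD45, was at 842, 926 and 959 TPM in lung but 18.5 and 75.3 TPM in tumor. A list of 40 pan-leukocyte genes had 38 lower, 1 higher (Dok2) and 1 not called (Runx3), with summed levels of 19003 to 19959 TPM (lung) against 1026 and 2811 TPM (tumor). Epithelial markers, 16 in all, had 14 higher and 0 lower, with sums of 137 to 189 TPM in lung and of 6922 and 6989 TPM in tumor, and no marker was at 0 throughout a tissue. For cells labelled as sorted PMN-MDSCs, the tumor libraries thus held low leukocyte and high epithelial levels. The part of these shifts in the results below was not tested.

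Camp, Ngp and Ltf lie in one stretch of chromosome 9 and encode classical secondary granule cargo. In GRCm38, by the GENCODE M21 annotation, Camp spans 109847379 to 109849617 on the minus strand. Ngp spans 110419747 to 110423012 and Ltf spans 111019271 to 111042767, both on the plus strand. A gap of 570 kb separates Camp from Ngp and one of 596 kb separates Ngp from Ltf. The RefSeq promoters of these neighbours (GRCm38.p6, from 250 bases before the start site to 50 after it) are shown because these 3 neighbours were all called lower. Capitals mark matches to a C/EBP-type motif, TTGCNNAA on either strand.
Ngp, chr9:110419558-110419857, plus strand: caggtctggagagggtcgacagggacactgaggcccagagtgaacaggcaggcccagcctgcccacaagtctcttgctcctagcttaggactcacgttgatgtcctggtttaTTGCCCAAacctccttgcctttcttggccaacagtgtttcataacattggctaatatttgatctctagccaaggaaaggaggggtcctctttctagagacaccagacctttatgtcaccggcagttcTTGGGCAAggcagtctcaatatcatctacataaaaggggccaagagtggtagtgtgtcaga
Camp, chr9:109849407-109849706, minus strand: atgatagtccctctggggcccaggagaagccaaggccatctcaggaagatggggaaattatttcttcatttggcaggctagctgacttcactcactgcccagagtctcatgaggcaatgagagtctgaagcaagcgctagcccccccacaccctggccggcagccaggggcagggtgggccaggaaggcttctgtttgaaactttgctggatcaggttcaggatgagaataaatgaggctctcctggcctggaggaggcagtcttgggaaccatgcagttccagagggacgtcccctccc
Ltf, chr9:111019042-111019341, plus strand: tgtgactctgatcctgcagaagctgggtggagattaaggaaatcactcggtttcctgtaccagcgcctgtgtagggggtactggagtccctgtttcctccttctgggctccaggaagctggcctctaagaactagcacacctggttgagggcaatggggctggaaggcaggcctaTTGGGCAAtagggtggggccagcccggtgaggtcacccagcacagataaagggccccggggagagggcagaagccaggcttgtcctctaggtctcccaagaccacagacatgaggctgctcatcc

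Positions count the first transcribed base in RefSeq as 1 and the base before it as -1. The RefSeq start sites of Camp, Ngp and Ltf do not match the starts of the GENCODE M21 spans above, so positions hold for RefSeq only. The Ngp window held TTGCCCAA from position -138 and TTGGGCAA from position -11. The Ltf window held TTGGGCAA from position -75, and the Camp window held no match. RefSeq promoters were found for 9 of the 10 genes, all but Hp. The C/EBP-type motif was present in 4 of the 9 (Ngp, Ltf, Lcn2 and Retnlg) and in 10.8% of all 32851 promoters of the same length. A PU.1-type motif, GAGGAAG on either strand, was in 3 of the 9 (Lcn2, Pglyrp1 and Olfm4) and in 13.6% of all promoters. TATAAA on the gene's strand was in 2 of the 9 (Chil3 and Cd177) and in 8.32% of all promoters. No match overlapped a match of another motif. A match describes the letters and is not evidence of binding.

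All 10 genes were lower in tumor, in both tumor libraries against every lung library. Each of the 10 was called lower by limma, whereas 27.0% of all tested genes were called lower and 31.6% higher. For 35.7% of all tested genes both tumor values lay under all lung values. The folds of mean TPM ran from 13.7-fold (Olfm4) to 88.3-fold (Camp). Without tumor 2 they ran from 8.68-fold to 49.6-fold, and without tumor 3 from 28.3-fold (Lcn2) to 399.9-fold (Camp). The median difference of the 10 was -4.84, beside 0.018 for all tested genes. Together they held 1.17%, 1.65% and 0.849% of all TPM in lung 1, 2 and 3, and 0.0214% and 0.0701% in tumor 2 and 3.

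**Figure D1:**
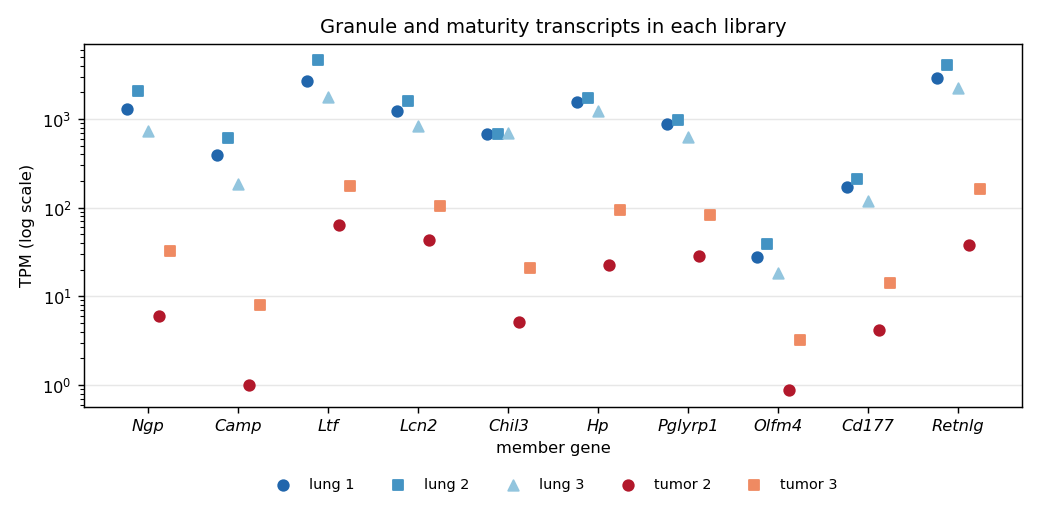
TPM on a log axis for the 10 genes, with 1 point per library (blue for lung 1 to 3, red and orange for tumor 2 and 3). Both tumor points lie under all lung points for every gene, and tumor 2 lies under tumor 3 throughout.

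Ngp encodes neutrophilic granule protein, a cathelicidin-related protein of the granule lumen. It was at 1292, 2064 and 740 TPM in lung 1, 2 and 3, and at 6.08 and 32.5 TPM in tumor 2 and 3. The lowest lung value was 22.8 times the higher tumor value. Means were 1365 ± 665 TPM (SD, n = 3) and 19.3 ± 18.7 TPM (SD, n = 2), a 70.8-fold fall and a limma difference of -6.35 ± 0.78 (adjusted p = 0.00257).

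Camp encodes the cathelicidin whose cleaved end is the antimicrobial peptide CRAMP. It was at 394, 616 and 184 TPM in lung, and at 0.995 and 8.02 TPM in tumor. The groups were as far apart as for Ngp, with a lowest lung value 22.9 times the higher tumor value. The limma difference was -6.39 ± 0.81 (adjusted p = 0.00279), and since tumor 2 lay near 1 TPM this scale understates the 88.3-fold ratio of the means.

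Ltf encodes lactoferrin, the iron-binding protein that defines secondary granules. Ltf was among the most abundant transcripts of the lung libraries, at 2656, 4559 and 1786 TPM, which made its mean the 20th highest of all genes. In tumor it was at 63.6 and 178 TPM. It fell 24.9-fold (limma difference -4.70 ± 0.59, adjusted p = 0.00268), less than its chromosomal neighbours.

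Lcn2 encodes lipocalin-2, which keeps iron from bacteria by binding their siderophores. It was at 1229, 1587 and 836 TPM in lung and at 43.0 and 105 TPM in tumor. The tumor libraries differed 2.43-fold, the smallest ratio among the 10 genes. The fall was 16.5-fold (limma difference -4.11 ± 0.47, adjusted p = 0.00218). Lcn2 and Ltf are also made by epithelia. The epithelial sums given above were higher in tumor, and both genes were lower there. The part of epithelial cells in the levels of either gene was not tested.

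Olfm4 encodes olfactomedin-4, a secondary granule glycoprotein carried by a subset of neutrophils. It was the least abundant of the 10, at 27.7, 39.1 and 18.2 TPM in lung and at 0.879 and 3.26 TPM in tumor. Its fall was the smallest, with a limma difference of -3.31 ± 0.48 (adjusted p = 0.00398).

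The next members encode soluble proteins that bind haemoglobin, bacterial wall or sugars. Hp encodes haptoglobin, which captures free haemoglobin and is stored in neutrophil granules besides being a liver protein. It was at 1536, 1727 and 1235 TPM in lung and at 22.6 and 92.9 TPM in tumor, with groups far apart. The limma difference was -4.98 ± 0.60 (adjusted p = 0.00247). Hepatocyte markers summed to 3.05 to 7.28 TPM in any library, with Alb at 0.0886 to 1.16 TPM. Which cells the Hp transcripts came from was not tested.

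Pglyrp1 encodes a peptidoglycan recognition protein that kills bacteria. It was at 869, 978 and 621 TPM in lung and at 28.6 and 83.7 TPM in tumor. The fall was 14.6-fold (limma difference -4.01 ± 0.49, adjusted p = 0.00256), close to that of Lcn2.

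Chil3 encodes Ym1, a chitinase-like lectin of immature neutrophils and of alveolar macrophages. Its lung values of 679, 669 and 694 TPM stood within 1.04-fold of each other, by far the narrowest lung spread of the 10. In tumor it was at 5.17 and 20.7 TPM, and the lowest lung value was 32.3 times the higher tumor value. The limma difference was -5.88 ± 0.54 (adjusted p = 0.0015). In the GENCODE M21 transcripts, 41.5% of its 31-base words also occur in other genes, most of them in Chil4 (28.9%), so the division of reads is uncertain. Chil4 itself was at 0.281 to 0.391 TPM in lung and at 0 and 0.0762 TPM in tumor.

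Alveolar macrophage markers moved in the same direction as Chil3. Of 16 such markers 14 were lower and 0 higher, and their sum was 1454 to 1501 TPM in lung and 484 and 606 TPM in tumor. Ctsd alone held 700 to 750 TPM of that sum in lung. In tumor it held 408 and 459 TPM, most of the sum, so the sums mainly follow this gene there. Marco, a scavenger receptor of these macrophages, was at 24.2, 34.5 and 15.5 TPM in lung and at 0.0378 and 0.54 TPM in tumor. None of the 16 was at 0 throughout a tissue. The summed airway and alveolar epithelial markers reached 1048, 321 and 285 TPM in lung but 12.0 and 23.5 TPM in tumor. The part of either cell type in the Chil3 difference was not tested.

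Cd177 and Retnlg stand for the neutrophil surface and for mature neutrophils. Cd177 encodes a lipid-anchored surface glycoprotein that binds PECAM-1 and holds proteinase 3 on the cell. It was at 172, 208 and 118 TPM in lung and at 4.20 and 14.1 TPM in tumor (limma difference -4.20 ± 0.52, adjusted p = 0.00259). Retnlg encodes resistin-like gamma, a secreted protein of mature neutrophils. At 2889, 4062 and 2258 TPM it had the highest lung mean of the 10, and it was at 38.5 and 164 TPM in tumor. Its limma difference of -5.21 ± 0.66 (adjusted p = 0.00269) lay between those of Chil3 and Hp.

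**Figure D2:**
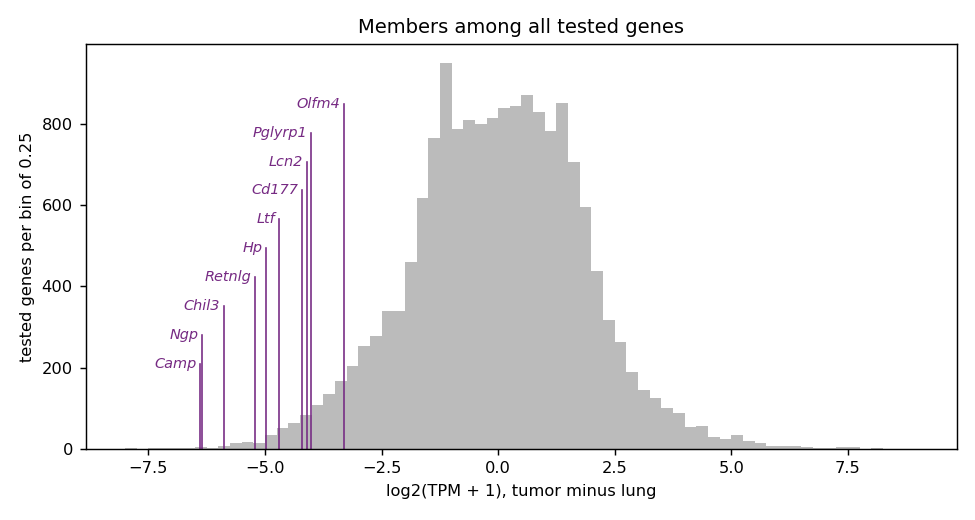
Histogram of the log2(TPM + 1) difference, tumor minus lung, over the 16387 tested genes in bins of 0.25, with the 10 members marked by vertical lines. The lines run from -6.39 (Camp) to -3.31 (Olfm4), while the median of all genes is 0.018. The heights of the lines only separate the labels.

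The order of the falls, from the largest, was Camp, Ngp, Chil3, Retnlg, Hp, Ltf, Cd177, Lcn2, Pglyrp1 and Olfm4. Camp and Ngp ranked 11 and 12 among the falls of all tested genes and Chil3 ranked 18, whereas Pglyrp1 ranked 297 and Olfm4 ranked 676. Neighbours in this order stood closer together than the larger of their standard errors, except Chil3 and Retnlg (0.67 apart) and Pglyrp1 and Olfm4 (0.70 apart). The gap between Pglyrp1 and Olfm4 rested on the pseudocount of 1 TPM. With pseudocounts of 0.1 and 0.01 TPM Olfm4 was at -3.90 and -3.99, beside -4.04 and -4.04 for Pglyrp1.

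In the authors' deposited table, 1 of the 10 genes, Chil3, had a false discovery rate under 0.05 (0.0286), as had 0.638% of all 34956 genes given one in the authors' deposited table. The authors' deposited false discovery rates of the other 9 ran from 0.108 (Hp) to 0.273 (Camp). The deposited p-values match an unequal-variance comparison of untransformed TPM, and on that scale Chil3 has the narrow lung spread given above while Camp and Ngp have wide ones.

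The 10 genes did not fall in equal measure, and their make-up differed between tissues. Ngp made up 11.0%, 12.5% and 8.72% of the summed TPM of the 10 in lung, and 2.85% and 4.64% in tumor. Camp went from between 2.17% and 3.73% in lung to 0.465% and 1.14% in tumor. Lcn2 took the opposite course, from between 9.61% and 10.5% in lung to 20.1% and 14.9% in tumor. Pglyrp1 had a higher share in tumor likewise, from between 5.92% and 7.40% to 13.4% and 11.9%.

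**Figure D3:**
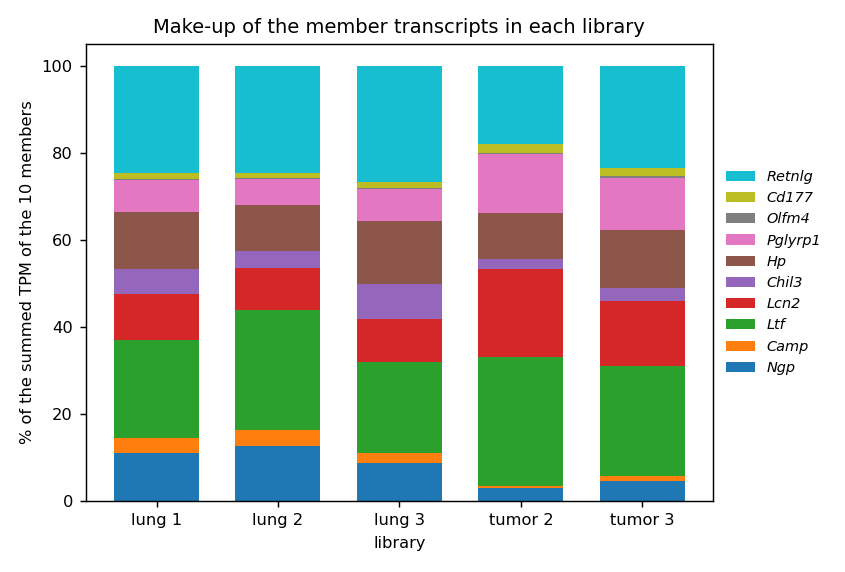
Stacked bars of the percentage of the summed TPM of the 10 genes that each gene holds, 1 bar per library. Ngp, Camp and Chil3 take thinner layers in the tumor bars, and Lcn2 and Pglyrp1 take thicker ones.

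Ratios of 2 genes within a library do not depend on how libraries are scaled. The ratio of Ngp to Lcn2 was 1.05, 1.30 and 0.885 in lung and 0.141 and 0.311 in tumor. The ratio of Camp to Ltf was 0.148, 0.135 and 0.103 in lung and 0.0156 and 0.0451 in tumor. For Chil3 over Pglyrp1 it was 0.781, 0.685 and 1.12 in lung and 0.181 and 0.247 in tumor. Each of these was lower in both tumor libraries than in any lung library. In contrast, Ngp over Chil3 was 1.90, 3.08 and 1.07 in lung and 1.18 and 1.57 in tumor, and Lcn2 over Pglyrp1 was 1.41, 1.62 and 1.35 in lung and 1.50 and 1.25 in tumor, so both overlapped. The pairs printed were chosen after their values were seen, and no test was made.

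Beside other neutrophil transcripts of the same library, Camp, Ngp and Chil3 fell furthest from lung to tumor, while the tissues overlapped for 4 other members. The yardstick was the mean log2(TPM + 1) of 16 neutrophil reference genes that hold no member, such as the growth factor receptor gene Csf3r and the chemokine receptor gene Cxcr2. That mean was 9.59, 9.80 and 9.58 in lung and 5.06 and 6.78 in tumor. Of the 16, 14 were called lower and 0 higher, and Hcar2 and G0s2 were not called.

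Ngp minus the reference was 0.75, 1.21 and -0.049 in lung and -2.24 and -1.71 in tumor, a difference of -2.61 (two-sided exact permutation p = 0.1, adjusted p = 0.2 over the 10 members). Camp minus the reference differed by -2.65 and Chil3 by -2.14, with the same p-values. With 3 against 2 libraries there are 10 splits, so an exact p cannot go below 0.1. Retnlg (-1.47) and Hp (-1.24) also had tumor values under all lung values and an exact permutation p of 0.1. Ltf differed by -0.96 with no overlap (exact permutation p = 0.2). These 6 of the 10 members had both tumor values under all lung values on this scale, beside 0.848% of all tested genes. For Cd177 (-0.46), Lcn2 (-0.37), Pglyrp1 (-0.28) and Olfm4 (0.43) the groups overlapped, with exact permutation p from 0.3 to 0.4. The sign for Olfm4 depended on the pseudocount, at -0.12 with 0.1 TPM.

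**Figure D4:**
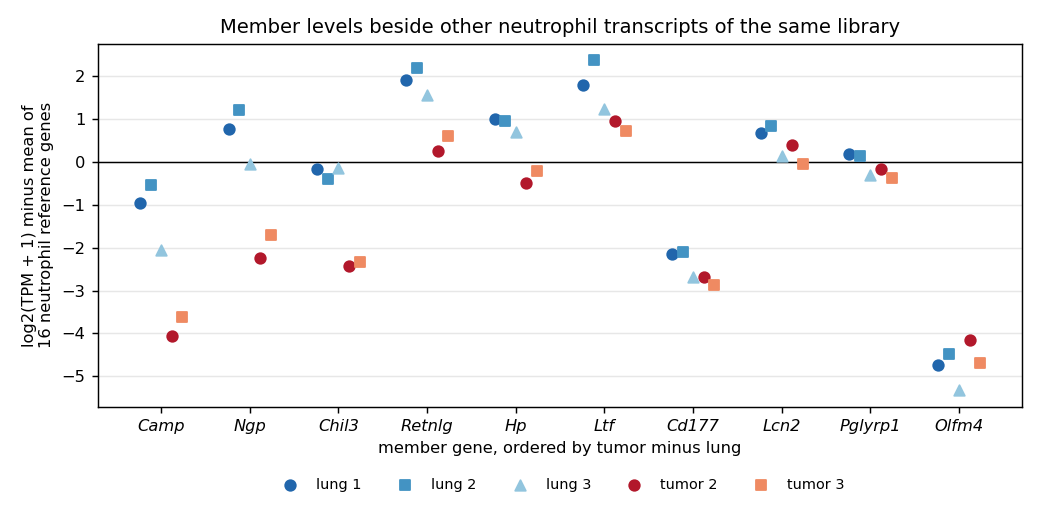
Level of each gene, log2(TPM + 1) minus the mean of 16 neutrophil reference genes in the same library, with 1 point per library. The tumor points (red, orange) lie under all lung points (blue) for Camp, Ngp, Chil3, Retnlg, Hp and Ltf, and mix with them for the other 4 genes.

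The same comparison fitted over all 16387 genes, with libraries centred on the 16 reference genes, called 4 of the 10 members lower and 0 higher. In this fit 0.269% of all genes were called lower and 86.1% higher, because centring shifts all genes upward, to a median of 3.76. The 4 were Ngp (limma adjusted p = 0.000189), Camp (adjusted p = 0.000515), Chil3 (adjusted p = 0.00305) and Retnlg (adjusted p = 0.0226). These p-values overstate what 5 libraries can show. Centring gives all genes a common shift between tumor 2 and 3, so limma draws their spread largely from other genes. Epcam, for example, reached a limma adjusted p of 4.7e-31. To varying degree this holds for the other limma fits to centred values below. The exact permutation p was 0.1 for each of the 4. Hp (-1.24, adjusted p = 0.0642) and Ltf (-0.96, adjusted p = 0.134) did not pass. When Hcar2 and G0s2 were left out of the reference, a choice made after seeing the data, Retnlg was at -1.07 (adjusted p = 0.101) and Ngp, Camp and Chil3 were still called. Lcn2 and Pglyrp1 then stood at 0.033 and 0.13, on the other side of 0.

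Centring on the 40 pan-leukocyte genes moved the median of all genes to 3.19, and 0.995% of all genes were then called lower. It called 6 of the 10 members lower, namely Ngp (-3.17), Camp (-3.22), Chil3 (-2.71), Retnlg (-2.04), Hp (-1.81) and Ltf (-1.52). Cd177 was at -1.03 (adjusted p = 0.0887), Lcn2 at -0.94 (adjusted p = 0.0875), Pglyrp1 at -0.84 (adjusted p = 0.127) and Olfm4 at -0.14 (adjusted p = 0.838).

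**Figure D5:**
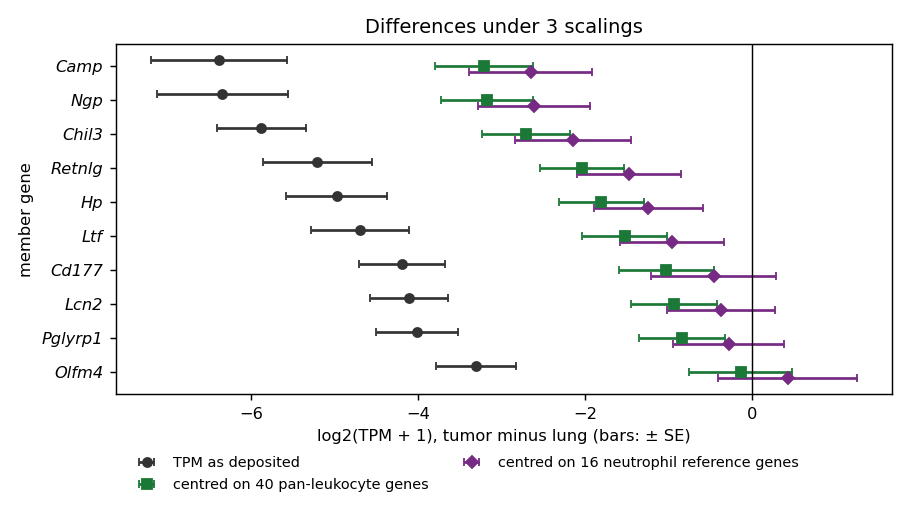
Difference in log2(TPM + 1), tumor minus lung, with ± SE from limma, for TPM as deposited (black), centred on 40 pan-leukocyte genes (green) and centred on 16 neutrophil reference genes (purple). Camp, Ngp and Chil3 stay furthest below 0 under each scaling, and Olfm4 lies to either side of 0 once libraries are centred.

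The members also varied between libraries of one tissue. In lung, 9 of the 10 were highest in library 2 and lowest in library 3, and Chil3 was the exception. The highest lung value was 3.35 times the lowest for Camp, 2.79 times for Ngp, 2.55 times for Ltf and 2.14 times for Olfm4, but 1.40 times for Hp and 1.04 times for Chil3. Over the same libraries Ptprc varied 1.14-fold, Cxcr2 1.10-fold and the alarmin gene S100a8 1.68-fold. S100a8 was likewise highest in library 2 and lowest in library 3, whereas Ptprc and Cxcr2 were not. The share of all genes with this order was not counted. In tumor all 10 were higher in library 3 than in library 2, by 2.43-fold (Lcn2) to 8.06-fold (Camp), and Ptprc was 4.07-fold higher.

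Other granule genes were mostly lower in tumor too, but by less at the median. Of 22 other secondary and tertiary granule genes, 20 were lower, 1 higher and 1 not called (Ckap4), with a median difference of -3.11 beside -4.84 for the 10 members. Mmp8, the neutrophil collagenase of secondary granules, was at 263, 391 and 263 TPM in lung and at 2.12 and 13.5 TPM in tumor (-5.49 ± 0.68, limma adjusted p = 0.00258). Mmp9, the gelatinase that defines tertiary granules, was at 982, 1033 and 1049 TPM in lung and at 75.7 and 201 TPM in tumor (-3.04). Mcemp1, a granulocyte and mast cell membrane protein gene, fell by 4.06. The riser was Anxa1, which encodes annexin A1 and is also strongly made by epithelia, from 553 to 2105 TPM (1.95). Centred on the neutrophil reference genes this list had 1 lower gene, Mmp8 (-1.75, limma adjusted p = 0.0214), and 5 higher genes. Without Hcar2 and G0s2 in the reference Mmp8 did not pass (-1.34, limma adjusted p = 0.0779). Mmp9 stood at 0.70 when centred on all the reference genes, on the other side of 0.

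The primary granule enzyme genes Mpo and Elane were at low levels in both tissues, and their means over all libraries lay under the 1 TPM needed for testing. Mpo, which encodes myeloperoxidase, was at 0.541, 1.06 and 0.707 TPM in lung and at 0 and 0.121 TPM in tumor. Elane, which encodes neutrophil elastase, was at 1.41, 0.421 and 1.22 TPM in lung and at 0 and 0.0888 TPM in tumor. Of 14 primary granule and precursor genes, 7 reached 1 TPM on average and were tested, with 5 lower, 1 higher and 1 not called (Ctsc). Fcnb, a ficolin gene of granulocyte precursors, was at 6.68, 7.21 and 3.90 TPM in lung and at 0 and 0.471 TPM in tumor (-2.48). Centred on the neutrophil reference genes Fcnb stood at 1.26, but at -0.82 and -2.58 with pseudocounts of 0.1 and 0.01 TPM. The riser was Cd63, which encodes a tetraspanin of primary granules and of lysosomes in most cells, from 66.4 to 647 TPM (3.27).

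Transcription factors of granulocyte development were lower for 8 of 11 tested genes and higher for 1, with Cebpg and Runx1 not called. Cebpe, which drives secondary granule genes, was at 11.9, 13.9 and 10.8 TPM in lung and at 0.415 and 2.01 TPM in tumor (-2.67 ± 0.37, limma adjusted p = 0.00342). Cebpd fell from 55.7 to 8.82 TPM (-2.53). Klf5, a factor also made by epithelia, rose from 4.75 to 26.6 TPM (2.28). Centred on the neutrophil reference genes, Cebpe stood at 1.07 and Cebpd at 1.21, on the other side of 0, and neither passed (adjusted p = 0.24 and 0.133, limma). With pseudocounts of 0.1 and 0.01 TPM, chosen after seeing the data, Cebpe was nearer to 0, at 0.23 and 0.078. Without Hcar2 and G0s2 in the reference Cebpd passed as higher (1.61, limma adjusted p = 0.046).

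Of 20 mature neutrophil surface and signalling genes 19 were tested, and 18 were lower, 0 higher and 1 not called (Il1rn), with a median of -3.56. Relatives of the members that come from gene families were examined as well. Of 7 tested resistin-like and chitinase-like genes, which include Chil3 and Retnlg, 5 were lower, 1 was higher (Chid1) and 1 was not called (Retnla). Retn, which encodes resistin, was at 3.07, 5.85 and 4.63 TPM in lung and at 0.0581 and 0.356 TPM in tumor (-2.17), far under the level of Retnlg. Chil1, a chitinase-like gene, fell from 416 to 15.2 TPM (-5.03). All 6 tested stefin A genes, cystatin-type protease inhibitors, were lower, among them Stfa2l1, from 479 to 61.3 TPM (-3.08). How reads were divided among these similar genes was not tested. Centred on the neutrophil reference genes, Stfa2l1 stood at 0.65, on the other side of 0. Retn stood at 1.57 on that scale, but at -0.27 and -1.003 with pseudocounts of 0.1 and 0.01 TPM, so its sign rested on the 1 TPM added to low tumor values. Of 8 tested peptidoglycan recognition, olfactomedin and lipocalin-type relatives, 4 were lower and 1 higher (Rbp4).

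Binding partners and receptors of the member proteins were lower for 8 of 16 tested genes and higher for 2 (Cd163 and F2rl1). Trem1, whose protein is a receptor for the Pglyrp1 product, was at 440, 568 and 513 TPM in lung and at 14.1 and 46.5 TPM in tumor (-4.24). Cd163, which encodes the macrophage receptor for haptoglobin bound to haemoglobin, was at 1.58, 0.733 and 1.01 TPM in lung and at 3.35 and 15.8 TPM in tumor (2.04, limma adjusted p = 0.0373). The call was lost when tumor 3 was left out (adjusted p = 0.0637) or when any lung library was (adjusted p from 0.0857 to 0.126). Monocyte and macrophage markers, 14 in all, had 6 higher and 6 lower genes, with sums of 1318 to 1431 TPM in lung and of 1190 and 2764 TPM in tumor.

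The tested genes whose profile over the 5 libraries came nearest to the mean profile of the 10 were S100a8, Wfdc21, Nfe2, Lrg1, Ifitm6, Chil1, Steap4 and Ear1. Nearness was the Euclidean distance between log2(TPM + 1) values centred on each gene's own mean, and it ran from 0.34 for S100a8 to 0.53 for Ear1. Among the members Hp (0.38), Retnlg (0.42) and Ltf (0.44) were as near, while Camp (1.75) and Olfm4 (1.80) were the furthest. Each member is part of that mean profile and the other genes are not, so the distances of the 2 kinds are not strictly comparable. Centred on the neutrophil reference genes, all of these nearest genes stood below 0, from -1.555 (Ear1) to -0.911 (Nfe2). Only Ifitm6 was called lower on that scale (-1.50, limma adjusted p = 0.0441). S100a8 was at 17209, 18258 and 10842 TPM in lung and at 274 and 1103 TPM in tumor. Ear1, an eosinophil-type ribonuclease gene that alveolar macrophages also make, was at 63.2, 82.6 and 56.3 TPM in lung and at 0 and 1.97 TPM in tumor.

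Genes between Camp and Ltf on chromosome 9 went both ways. The stretch from 109847379 to 111042767 holds 21 other tested genes, of which 7 were lower, 7 higher and 7 not called. Of all tested genes, 27.0% were called lower and 31.6% higher. The median difference of the 21 was 0.50, and the lowest was -2.48 (Gm43622). The window was chosen after the values were seen.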

How the data were processed

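The authors quantified RNA, per the series' design text, with Salmon 0.9.1 against GENCODE mouse M24 transcripts and deposited TPM for 5 libraries. Each column sums to 1000000. TPM keeps no depth, so no counting error or count test was possible, although the labels state 20000000 paired reads from at least 2000000 sorted cells. The authors' deposited p-values and false discovery rates were used only to describe their calls. All 34956 p-values lay within 0.001 of an unequal-variance comparison of TPM that was not log-transformed. Of 55276 rows, 26 carried spreadsheet dates as names and were left out.

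Groups follow the tissue label, and titles give the replicate numbers. limma 3.58.1 in R 4.3.3 was fitted with an intensity trend to log2(TPM + 1) of all 5 libraries, two-sided. Its check on simulated data used noise independent between genes and no centring, so it does not cover shifts shared across a library. Exact permutation tests, ratios and distances used Python 3.11.15. The 10 members and 19 further gene lists were chosen with earlier results of these data known. Genes named beside the members are the fixed genes, up to 4 with the smallest p per list, the 8 nearest profiles, and Mmp8, Mmp9, Anxa1, Cd163, Chil4, Alb and Gm43622, picked once their values were known, like the genes that complete a small count. The rule takes further genes that are not named. Coordinates are from GENCODE M21 (GRCm38) and promoters from RefSeq (GRCm38.p6). Lists of lymphocyte, endothelial, erythroid and granulocyte markers other than neutrophils were measured too: 5 of 7, 10 of 10, 0 of 5 and 3 of 7 tested genes were lower, and 0, 0, 0 and 1 higher. Alternatives were other pseudocounts, filters, scalings and limma settings, a replicate block, and leaving out each library.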

Additional observations from a re-analysis of the deposited data

How the results depend on the processing

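All 10 members were called lower under other pseudocounts (0.1 and 0.01 TPM), no filter or one of 5 TPM, TPM without mitochondrially encoded genes, upper quartile scaling, limma without trend, robust or unmoderated, and without each of the 5 libraries. The count of all called genes was 9609, and leaving out 1 library gave 6285 (without tumor replicate 2) to 8848. Over these 5 fits the median of the members ran from -5.70 to -3.97. TPM without mitochondrially encoded genes moved the median of all genes to 0.13, with 5633 higher and 4106 lower.

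Centring on pan-leukocyte genes gave 6 called members with a median of -1.67 (13308 genes higher and 163 lower in all), and centring on neutrophil reference genes gave 4 with a median of -1.10 (14111 higher and 44 lower). Without Hcar2 and G0s2 in the reference, a choice made after seeing the data, 14821 genes and 3 members were called, with a member median of -0.70. Signs turned under these 3 settings, in the order given, for Mmp9 (0.14, 0.70 and 1.11), Fcnb (0.69, 1.26 and 1.66), Cebpe (0.51, 1.07 and 1.47), Cebpd (0.65, 1.21 and 1.61), Retn (1.00, 1.57 and 1.97) and Stfa2l1 (0.090, 0.65 and 1.06). Olfm4 turned under the second and the last (0.43 and 0.83), and Lcn2 (0.033), Pglyrp1 (0.13) and Mcemp1 (0.085) under the last. Relative to the reference genes Olfm4 was at -0.12 and -0.20 with pseudocounts of 0.1 and 0.01 TPM, against 0.43. With these pseudocounts (0.1 and 0.01 TPM, combined with reference centring after seeing the data), 12527 and 12245 genes were called, 227 and 359 of them lower, and 4 members, with member medians of -1.08 and -1.07. The signs of Mmp9 (0.74 and 0.74), Cebpe (0.23 and 0.078), Cebpd (1.14 and 1.13) and Stfa2l1 (0.68 and 0.68) stayed turned, whereas Retn (-0.27 and -1.003) and Fcnb (-0.82 and -2.58) were back below 0, so their turn depends on the pseudocount of 1 TPM. Centring changes what a value is measured against by construction.

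Only numbers 2 and 3 occur in both tissues. Deviations from the group means of same-numbered libraries correlated at 0.003 and 0.083 across genes. With only 2 tumor libraries, their deviations mirror each other, so this check could hardly reveal pairing. Whether the numbers pair libraries stays unknown. A replicate block by title number, fitted to the 4 libraries concerned, called 9 of 10 members and 7218 genes. Olfm4 missed the threshold (-3.29, adjusted p = 0.0553), as did Stfa2l1 (-3.05, adjusted p = 0.0537) and Cd163 (2.19, adjusted p = 0.0758). TPM keeps no depth, so precision at low levels, as for Camp and Olfm4 in tumor 2, is unknown.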
